A study of Homo sapiens with 4 samples.

Results

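The 36 genes described here encode the enzymes that make serine, charge folate with single carbon units, and build purine and pyrimidine nucleotides, with asparagine synthetase beside them. They were chosen by symbol, and each of the 36 symbols matched 1 of the 58051 Ensembl genes counted in every library. All 36 passed the filter on low counts, which kept 18046 genes for testing. The cells were A549, an established human lung carcinoma line, in which A-FOS had been inserted at random sites by piggyBac transposase under doxycycline control. In the plus Dox group (n = 2 libraries) the medium held doxycycline at 1 µg/mL. The minus Dox group (n = 2 libraries) carried the same insertion and was labelled as untreated. A-FOS is a dominant-negative FOS that pairs with JUN proteins and keeps them off DNA, so the comparison addresses what expression does when AP-1 is blocked. Doxycycline and A-FOS come together in this design and cannot be told apart, and the labels do not state the length of treatment or whether the replicates were separate cultures or clones. The p-values thus speak for the spread among these 4 libraries alone, which could be technical.

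Serine is made from a glycolytic intermediate by PHGDH, PSAT1 and PSPH in turn. Serine hydroxymethyltransferases pass a carbon of serine to folate, mitochondrial enzymes turn that carbon into formate, and cytosolic enzymes use the formate for purine rings and for thymidylate. Purines are assembled on ribose phosphate, whereas the pyrimidine ring is closed first and joined to ribose phosphate afterwards. Proliferating carcinoma cells draw on these routes for DNA and RNA synthesis, and MYC, ATF4 and E2F factors are known activators of many of the genes.

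Total counts ranged from 31104964 to 32727539 in plus Dox and from 36377784 to 40526912 in minus Dox. To check the labels, reads counted to FOS, which may include reads of A-FOS, were 48.6 and 51.0 CPM in plus Dox and 1.36 and 1.52 CPM in minus Dox (CPM, reads relative to library size after TMM, a trimmed-mean scaling between libraries). Of 9 epithelial and A549 markers all were tested, with a summed level of 12133 to 12402 CPM in plus Dox and 26029 to 26171 CPM in minus Dox. KRT8, KRT18 and ALDH1A1 led that sum, while 7 of the 9 markers passed as lower in plus Dox (5 lower and 2 higher after a trend in GC content, exon length and abundance was removed). The alveolar markers SFTPC, SFTPB, SFTPA1 and NKX2-1 were at or near 0, and the 5 alveolar markers summed to 1.85 to 3.07 CPM in plus Dox and 0.621 to 0.907 CPM in minus Dox. Of the 5 only 1 was tested, and it passed as higher in plus Dox, with a log2 fold change of 1.96. The 6 leukocyte markers summed to 1.34 to 1.53 CPM in plus Dox and 2.21 to 3.19 CPM in minus Dox, with CD3E at 0 in all libraries. The 4 endothelial markers summed to 0.805 to 1.19 CPM in plus Dox and 1.54 to 1.63 CPM in minus Dox. The 6 fibroblast markers summed to 38.4 to 40.6 CPM in plus Dox and 42.4 to 48.7 CPM in minus Dox, most of it COL1A1.

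With doxycycline the nucleotide enzymes were on balance lower with TMM scaling, the pyrimidine route most, while mitochondrial folate enzymes other than MTHFD1L were higher. Of the 36 genes 19 were lower, 10 higher and 7 not past the threshold by edgeR's quasi-likelihood test (Benjamini-Hochberg adjusted p under 0.05 over all tested genes), though 13 were lower and 15 higher with library size only. These counts sit in a comparison where 28.4% of all tested genes passed as higher, 28.4% as lower and 56.9% in either direction. Among the 10260 tested genes with a mean of at least 8.80 CPM, the lowest mean among the 36, 72.8% passed, 34.7% as higher and 38.2% as lower. Against that share, 80.6% of the 36 passed, 27.8% as higher and 52.8% as lower. The median log2 fold change over the 36 was −0.14, beside 0.00 over all tested genes. Levels of both plus Dox libraries lay to 1 side of both minus Dox libraries in 32 of the 36 genes (88.9%), where 77.0% of all tested genes did so. Most changes were small: 3 of the 36 genes (8.33%) passed with a change of at least 2-fold, against 12.7% of all tested genes, and 7 (19.4%) with at least 1.5-fold, against 24.5%. In bulk RNA, fewer cells of a kind and less RNA per cell cannot be told apart.

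The balance between higher and lower depends on the scaling. With library size only, without TMM, 15 of the 36 genes passed as higher and 13 as lower, against 43.6% and 16.2% of all tested genes, and the median of the 36 turned to 0.072. That scaling moves the median of all tested genes to 0.22 and makes 72.9% of called genes higher, against 50.0% with TMM. With a smooth trend in GC content, exon length and abundance taken out of each library (the trend removed), where 29.6% of all tested genes passed as higher and 25.1% as lower, 11 were higher and 15 lower, with a median of −0.045. In all 11 alternative settings, those scalings, DESeq2 and the omission of each library included, 7 genes remained higher (MTHFD2, ALDH1L2, PRPS2, HPRT1, RRM2, RRM2B and ASNS) and 12 remained lower (MTHFD1, MTHFD1L, GART, PFAS, ADSL, ATIC, IMPDH2, APRT, CAD, CTPS1, CTPS2 and UPP1).

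**Figure D1:**
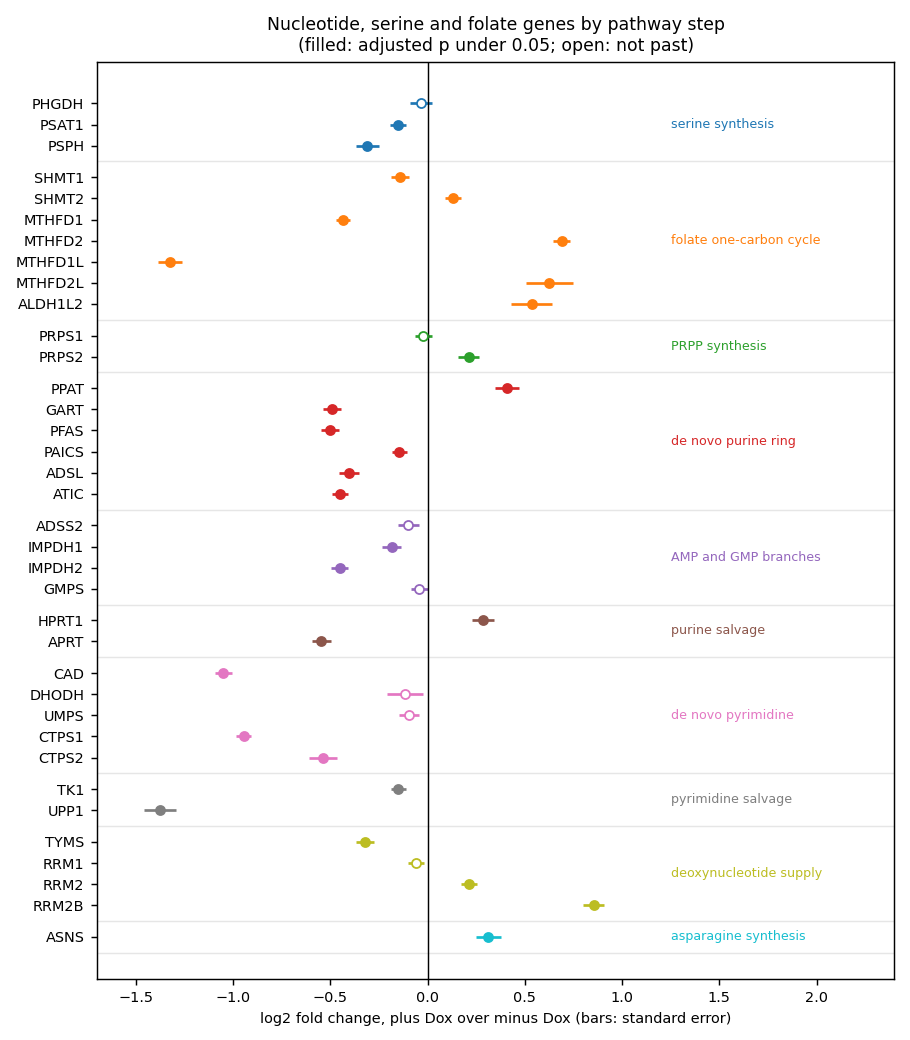
Fitted log2 fold change (x axis, plus Dox over minus Dox, bars show the standard error) of the 36 genes, grouped by pathway step down the page; filled points passed an adjusted p of 0.05 and open points did not. UPP1, MTHFD1L and CAD lie beyond −1, and RRM2B lies farthest to the right at 0.85; 26 genes were negative with TMM and 14 with library size only.

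The genes with a fall of at least 2-fold were UPP1, MTHFD1L and CAD. The stretches of their RefSeq promoters (GRCh38.p14) outside exons annotated in GENCODE 29 are printed because these are the largest changes of the set. They run 5′ to 3′ on the gene's strand and lie at chr6:150866388-150866485 for MTHFD1L, chr2:27217179-27217368 for CAD and chr7:48089004-48089211 for UPP1, all on the plus strand. The MTHFD1L and UPP1 stretches lie inside the GENCODE 29 spans of these genes, which start at 150865549 and 48088628. The CAD stretch lies before the annotated start at 27217390. None of the 6 motifs searched, listed below, occurs in these stretches, so they hold no capitals. Over the full 250 bases searched, matches lie outside the printed parts. MTHFD1L held a CARE, an E-box and a CCAAT match, CAD held a CCAAT match, and UPP1 held none.
MTHFD1L: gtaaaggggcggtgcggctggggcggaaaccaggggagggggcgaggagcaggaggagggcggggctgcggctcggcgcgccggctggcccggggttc
CAD: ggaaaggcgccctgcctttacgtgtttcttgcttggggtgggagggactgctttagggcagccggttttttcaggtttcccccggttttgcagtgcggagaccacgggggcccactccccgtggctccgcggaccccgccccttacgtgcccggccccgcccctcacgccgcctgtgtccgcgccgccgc
UPP1: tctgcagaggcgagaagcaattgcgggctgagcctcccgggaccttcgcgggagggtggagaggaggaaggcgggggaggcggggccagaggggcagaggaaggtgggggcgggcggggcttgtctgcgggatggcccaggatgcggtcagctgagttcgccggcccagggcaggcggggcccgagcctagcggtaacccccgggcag

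The motifs were searched on both strands in the 250 bases before the RefSeq start of the 30 genes matched in the promoter table. They were AP-1 (TGANTCA), the cAMP response element (TGACGTCA), the CARE element bound by ATF4 with C/EBP partners (TGATGNAA), the E-box bound by MYC and MAX (CACGTG), an E2F site (TTTNGCGC) and the CCAAT box (CCAAT). In the 30 promoters no match of one motif overlapped a match of another. An AP-1 match was found in 1 of the 30 promoters, that listed for PAICS (3.33%, against 6.60% of all 27305 promoters). The stretch searched for PAICS, chr4:56410257-56410506, lies within PPAT (56393362 to 56435615) and not beside the annotated start of PAICS at 56435741. The match is thus not in the region between these neighbouring genes. The stretch searched for PPAT, chr4:56435616-56435865, covers that region and held no AP-1 match. An E-box was found in 5 of the 30 promoters (16.7%, against 6.49%), those of MTHFD1, MTHFD1L, PPAT, ATIC and DHODH. Of these genes MTHFD1, MTHFD1L and ATIC fell, PPAT rose and DHODH did not pass with TMM. With the trend removed PPAT passed as lower (−0.34). CCAAT boxes were in 12 (40.0%, against 33.0%), the cAMP element in 1, UMPS (3.33%, against 1.77%), and E2F matches in 0 (against 1.54%). A CARE match was found in 2 (6.67%, against 3.19%), ASNS and MTHFD1L, which moved in opposite directions. Their sites of 30 bases, with the match in capitals, and the E-box of MTHFD1L are shown for that reason. They begin 68 bases (ASNS, chr7:97872458-97872487, minus strand), 129 bases (MTHFD1L CARE, chr6:150866346-150866375, plus strand) and 154 bases (MTHFD1L E-box, chr6:150866320-150866349, plus strand) before the start, counted at the first base of the match. A match is a description of letters and not of binding.
ASNS CARE: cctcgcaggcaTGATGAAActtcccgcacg
MTHFD1L CARE: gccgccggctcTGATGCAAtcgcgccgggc
MTHFD1L E-box: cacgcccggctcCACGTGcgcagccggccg

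Serine synthesis changed little. PHGDH, which opens the pathway by oxidising 3-phosphoglycerate, had 60.0 and 65.6 CPM in plus Dox and 64.2 and 64.5 CPM in minus Dox. Its groups overlapped, and its log2 fold change was −0.03, with an interval of 2 standard errors from −0.15 to 0.08 (edgeR adjusted p = 0.621), though it passed as higher with library size only (0.18). PSAT1, the aminotransferase of the next step, had 158 and 165 CPM in plus Dox and 184 and 176 CPM in minus Dox. PSPH, the phosphatase that releases serine, had 49.3 and 49.3 CPM in plus Dox and 63.6 and 58.6 CPM in minus Dox. Both fell, PSAT1 by 0.15 and PSPH by 0.31 on the log2 scale (edgeR adjusted p = 0.00238 and 2.25e-05), with no overlap between groups. The fall of PSAT1 did not hold with library size only (0.063), with the trend removed (0.036) or without plus Dox replicate 1, and that of PSPH did not pass with library size only (−0.094).

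In the folate cycle 4 of 7 genes were higher and 3 lower, and direction did not follow compartment throughout. That is 100% passing, against 56.9% of all tested genes and 72.8% of those with at least 8.80 CPM. With library size only 4 were higher and 2 lower, and with the trend removed 3 were higher and 2 lower. Of 5 mitochondrial enzymes SHMT2, MTHFD2, MTHFD2L and ALDH1L2 rose and MTHFD1L fell. Both cytosolic enzymes, SHMT1 and MTHFD1, fell, though SHMT1 lay at 0.073 with library size only and at 0.035 with the trend removed, where it did not pass. MTHFD2, the mitochondrial dehydrogenase and cyclohydrolase, had 175 and 175 CPM in plus Dox and 111 and 106 CPM in minus Dox. Its groups stood well apart, with a log2 fold change of 0.69 (SE 0.04, edgeR adjusted p = 5.25e-16). In GENCODE 29, 33.2% of its exon bases lie opposite other genes, chiefly SLC4A5 and AC006030.1, which had at most 0.767 CPM in any library.

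MTHFD1L, the mitochondrial enzyme that releases formate, moved the other way. It had 27.8 and 27.1 CPM in plus Dox and 66.1 and 71.1 CPM in minus Dox, that is 27.4 ± 0.53 and 68.6 ± 3.52 CPM (SD, n = 2 each). Its level was 2.50-fold lower in plus Dox, a log2 fold change of −1.32 (SE 0.06, edgeR adjusted p = 1.72e-19), and it lay between −1.39 and −1.11 in all 11 alternative settings. The neighbouring step and the release step of the same route thus changed in opposite directions in both plus Dox libraries.

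The other mitochondrial folate genes changed less. MTHFD2L, a relative of MTHFD2 with low expression, had 10.8 and 10.6 CPM in plus Dox and 6.30 and 7.52 CPM in minus Dox, and its log2 fold change of 0.63 (SE 0.12, edgeR adjusted p = 3.15e-05) shrank to 0.071 with the trend removed, where it did not pass. ALDH1L2, which oxidises formyl-folate to carbon dioxide and yields NADPH, had 12.9 and 14.4 CPM in plus Dox and 9.64 and 9.20 CPM in minus Dox. Its rise of 0.53 on the log2 scale passed in all 11 alternatives. SHMT2, the mitochondrial serine hydroxymethyltransferase, had 181 and 190 CPM in plus Dox and 169 and 171 CPM in minus Dox, a log2 fold change of 0.13 (SE 0.04) that did not pass without plus Dox replicate 2.

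Of the cytosolic pair, MTHFD1, a trifunctional enzyme that loads formate onto folate, had 235 and 229 CPM in plus Dox and 310 and 319 CPM in minus Dox. It fell by 0.43 on the log2 scale (edgeR adjusted p = 3.78e-12) and was lower in every alternative, at −0.47 to −0.15. SHMT1, the cytosolic hydroxymethyltransferase, had 105 and 107 CPM in plus Dox and 119 and 115 CPM in minus Dox, a change of −0.14 that did not pass without either plus Dox replicate.

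**Figure D2:**
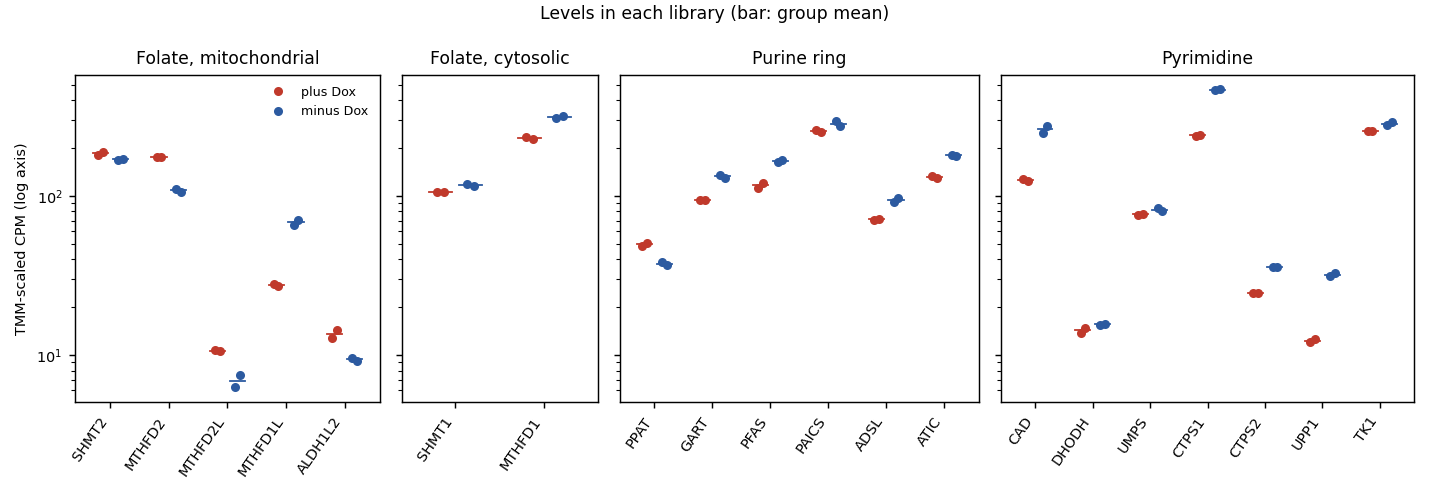
TMM-scaled CPM on a log axis in each plus Dox (red, left of each pair) and minus Dox library (blue), with the group mean as a bar, for mitochondrial and cytosolic folate genes, the purine ring and the pyrimidine genes. MTHFD2 and MTHFD1L stand apart in opposite directions, and CAD, CTPS1 and UPP1 show the widest gaps among pyrimidine genes; PPAT is the only purine ring gene higher in plus Dox, and it turns lower after the trend in GC content, length and abundance is taken out.

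Both routes of nucleotide synthesis draw on phosphoribosyl pyrophosphate (PRPP), purines as the base on which the ring is built and pyrimidines once the ring is closed. PRPS1, a PRPP synthetase, had 133 and 131 CPM in plus Dox and 136 and 132 CPM in minus Dox, with overlapping groups and a log2 fold change of −0.02 (interval −0.11 to 0.07, edgeR adjusted p = 0.705). It passed as higher with library size only (0.19) and with the trend removed (0.25). PRPS2 had 71.2 and 73.3 CPM in plus Dox and 61.8 and 63.0 CPM in minus Dox, a rise of 0.21 (edgeR adjusted p = 8.85e-04) that passed in all 11 alternatives.

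The purine ring enzymes fell in 5 of 6 genes, with a median log2 fold change of −0.43 that stayed negative with library size only (−0.21, 4 lower and 1 higher) and with the trend removed (−0.34, 5 lower and 0 higher). With TMM 100% of the 6 passed, against 56.9% of all tested genes and 72.8% of those with at least 8.80 CPM. PFAS, which adds an amide nitrogen to the growing ring, had 112 and 121 CPM in plus Dox and 163 and 167 CPM in minus Dox (−0.50, SE 0.05, edgeR adjusted p = 6.63e-12). GART, a trifunctional enzyme that uses formyl-folate, had 94.6 and 95.0 CPM in plus Dox and 136 and 131 CPM in minus Dox (−0.49). In neither gene did the groups overlap. ATIC, which inserts the last carbon and closes the ring, had 134 and 130 CPM in plus Dox and 182 and 178 CPM in minus Dox (−0.45). ADSL, a lyase used in the ring and in the AMP branch, had 70.7 and 72.2 CPM in plus Dox and 91.5 and 97.6 CPM in minus Dox (−0.41), with 18.9% of its exon bases shared with AL022238.4 on the same strand. These 4 genes passed as lower in all 11 alternatives.

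PPAT and PAICS behaved differently from the other ring genes. PPAT, the amidotransferase that commits PRPP to purines, had 48.7 and 50.7 CPM in plus Dox and 38.4 and 36.6 CPM in minus Dox, a log2 fold change of 0.41 (SE 0.06, edgeR adjusted p = 7.86e-07). It is the member with the lowest GC content (33.8% in its longest transcript), and with the trend removed it passed as lower, at −0.34 (edgeR adjusted p = 1.53e-06). PAICS, a bifunctional enzyme of the middle steps, had 261 and 254 CPM in plus Dox and 294 and 276 CPM in minus Dox, a fall of 0.15 (edgeR adjusted p = 0.00194) that did not hold with library size only (0.070), with the trend removed or without plus Dox replicate 2. The genes are divergent neighbours on chromosome 4: GENCODE 29 ends PPAT, on the minus strand, at 56435615 and starts PAICS, on the plus strand, at 56435741.

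Of the 4 other genes past inosine monophosphate, both dehydrogenases of the GMP branch fell, and GMPS and ADSS2 did not pass. IMPDH2, the main IMP dehydrogenase of dividing cells, had 122 and 124 CPM in plus Dox and 163 and 173 CPM in minus Dox, a log2 fold change of −0.45 (SE 0.04, edgeR adjusted p = 4.08e-11). IMPDH1 had 93.5 and 93.5 CPM in plus Dox and 104 and 108 CPM in minus Dox (−0.19). It lost its call with library size only (0.030) and with the trend removed. GMPS, which aminates xanthosine monophosphate to GMP, overlapped between groups at 155 and 147 CPM in plus Dox and 158 and 154 CPM in minus Dox (interval −0.13 to 0.04, edgeR adjusted p = 0.410), and passed as higher with library size only (0.17). ADSS2, the adenylosuccinate synthase of the AMP branch, had 74.5 and 73.0 CPM in plus Dox and 82.7 and 75.4 CPM in minus Dox (interval −0.21 to 0.01, edgeR adjusted p = 0.111). It passed as lower with the trend removed (−0.13) and without minus Dox replicate 2 (−0.17).

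The purine salvage enzymes moved in opposite directions in all 11 alternatives. HPRT1, which recovers hypoxanthine and guanine, had 70.9 and 71.2 CPM in plus Dox and 60.4 and 56.3 CPM in minus Dox, a log2 fold change of 0.28 (SE 0.05, edgeR adjusted p = 3.23e-05). APRT, which recovers adenine, had 72.0 and 71.4 CPM in plus Dox and 103 and 106 CPM in minus Dox, a log2 fold change of −0.55 (SE 0.05, edgeR adjusted p = 5.72e-12). Neither gene's groups overlapped. APRT had the highest GC content of the 36 genes, 63.6%, and HPRT1 40.6%. Over all 12 genes of purine synthesis, its branches and salvage, 8 fell, 2 rose and 2 did not pass, with a median of −0.30. Thus 83.3% passed, against 56.9% of all tested genes and 72.8% of those with at least 8.80 CPM. With library size only 6 were lower and 3 higher (median −0.08), and with the trend removed 8 were lower and 1 higher (median −0.18).

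The pyrimidine route held the larger falls. Over the 7 genes of pyrimidine synthesis and salvage 5 fell, 0 rose and 2 did not pass, with a median log2 fold change of −0.54, which was −0.32 with library size only (4 lower, 1 higher) and −0.55 with the trend removed (4 lower, 1 higher). Of these genes 71.4% passed with TMM, against 56.9% of all tested genes and 72.8% of those with at least 8.80 CPM. CAD, the multifunctional protein that carries the first 3 activities of the route, had 128 and 125 CPM in plus Dox and 249 and 275 CPM in minus Dox, or 127 ± 2.64 and 262 ± 18.3 CPM (SD, n = 2 each). It was 2.07-fold lower in plus Dox (log2 −1.05, SE 0.04, edgeR adjusted p = 6.44e-21). CTPS1, which turns UTP into CTP, had 238 and 243 CPM in plus Dox and 460 and 467 CPM in minus Dox, 1.93-fold lower (log2 −0.95, SE 0.04, edgeR adjusted p = 5.32e-22). For both genes the gap between groups was many times the spread within a group.

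DHODH and UMPS, which follow CAD on the way to UMP, did not pass. DHODH, the mitochondrial dehydrogenase of the route, had 13.9 and 14.9 CPM in plus Dox and 15.5 and 15.7 CPM in minus Dox (interval −0.30 to 0.07, edgeR adjusted p = 0.296). UMPS, which attaches PRPP and yields UMP, had 75.9 and 77.3 CPM in plus Dox and 83.6 and 80.3 CPM in minus Dox (interval −0.20 to 0.00, edgeR adjusted p = 0.102). It passed as higher with library size only (0.12). CTPS2, the second CTP synthase, fell to 24.6 and 24.5 CPM in plus Dox, against 35.7 and 35.6 CPM in minus Dox (log2 −0.54, edgeR adjusted p = 3.80e-08). Summed over the 5 genes of de novo synthesis, the level was 481 and 485 CPM in plus Dox and 844 and 874 CPM in minus Dox, and CAD and CTPS1 made up most of both sums.

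Both pyrimidine salvage genes fell, UPP1 by about as much as MTHFD1L, while the fall of TK1 did not hold with library size only (0.065) or with the trend removed. UPP1, which splits uridine into uracil and ribose phosphate, had 12.1 and 12.6 CPM in plus Dox and 31.3 and 32.6 CPM in minus Dox. It was 2.59-fold lower (log2 −1.37, SE 0.08, edgeR adjusted p = 1.46e-16), with a range of −1.41 to −1.16 over the 11 alternatives. TK1, the thymidine kinase of S phase, had 255 and 258 CPM in plus Dox and 279 and 291 CPM in minus Dox, a fall of 0.15 (edgeR adjusted p = 9.86e-04). TK1 has a GC content of 62.8%, and with the trend removed it passed as higher, at 0.27.

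Among the enzymes that supply DNA precursors, RRM2B and RRM2 rose, TYMS fell and RRM1 did not pass. RRM2B, a small subunit of ribonucleotide reductase used outside S phase, had 111 and 118 CPM in plus Dox and 67.4 and 59.5 CPM in minus Dox, the largest rise of the set with TMM (log2 0.85, SE 0.05, edgeR adjusted p = 7.18e-16). It remained higher in all 11 alternatives, at 0.41 with the trend removed, where MTHFD2 rose more (0.66). RRM2, the S-phase subunit, had 168 and 172 CPM in plus Dox and 149 and 144 CPM in minus Dox (0.21, edgeR adjusted p = 4.71e-05), and AC007240.1 on the same strand holds 20.2% of its exon bases. RRM1, the large subunit, overlapped between groups, with 238 and 241 CPM in plus Dox and 259 and 240 CPM in minus Dox (interval −0.14 to 0.02, edgeR adjusted p = 0.232), and passed as higher with library size only (0.16) and with the trend removed (0.10). TYMS, which makes thymidylate with a folate carbon, had 110 and 105 CPM in plus Dox and 139 and 130 CPM in minus Dox (−0.32, edgeR adjusted p = 2.45e-07), and lay at −0.023 with the trend removed, where it did not pass. For TYMS, 46.6% of exon bases lie opposite ENOSF1 and TYMSOS, and ENOSF1 itself fell by 0.41, so its count is uncertain.

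Most of the S-phase genes listed for comparison fell, unlike RRM2 and RRM2B. Of 21 tested S-phase genes 15 fell, 2 rose and 4 did not pass, with a median of −0.37 (−0.15 with library size only, where 12 fell and 6 rose, and −0.22 with the trend removed, where 13 fell and 5 rose). Their summed level was 2161 and 2158 CPM in plus Dox and 2875 and 2916 CPM in minus Dox. The 4 with the lowest adjusted p were the helicase subunits MCM7, MCM5 and MCM4 (−0.73, −0.72 and −0.61) and the methylation maintenance factor UHRF1 (−0.85). Of 17 genes of G2 and mitosis 11 fell, 3 rose and 3 did not pass, with a median of −0.16, which turned to 0.057 with library size only (7 higher, 2 lower) and to 0.027 with the trend removed (6 higher, 3 lower). Among them the anaphase activator CDC20 fell by 0.76, the spindle proteins TPX2 and CENPF fell by 0.45 and 0.27, and the mitotic kinase CDK1 rose by 0.66. In either direction 81.0% of the S-phase genes and 82.4% of the G2 and mitosis genes passed. Of all tested genes 56.9% did so, and of those with a mean of at least 8.80 CPM 72.8%. The part of cell cycle genes in the changes of RRM2, TYMS and TK1 was not tested.

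ASNS, which makes asparagine from aspartate and is a known target of ATF4, had 53.2 and 50.3 CPM in plus Dox and 44.1 and 39.3 CPM in minus Dox. Its groups did not overlap, with a log2 fold change of 0.31 (SE 0.06, edgeR adjusted p = 7.25e-05), and it passed in all 11 alternatives. In GENCODE 29, 44.6% of its exon bases are shared with AC079781.5 on the same strand, so its count is uncertain.

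Related enzymes that share a reaction were set against each other within each library, where the scaling between libraries has no part. With 2 libraries against 2, an exact permutation test cannot give a two-sided p below 0.333, so the ratios are descriptions. Reads per kb of IMPDH2 over IMPDH1 gave a ratio of 1.74 in plus Dox and 2.09 in minus Dox. CTPS1 over CTPS2 gave 4.69 in plus Dox and 6.22 in minus Dox, and PRPS1 over PRPS2 gave 1.92 in plus Dox and 2.26 in minus Dox. In these pairs the library values of the groups did not overlap, and the first gene lost share. The ratios still carry any trend in GC content, length and abundance. With the trend removed, the log2 fold changes were −0.16 for IMPDH2 and −0.05 for IMPDH1. They were −0.74 for CTPS1 and −0.55 for CTPS2, and 0.25 for PRPS1 and 0.27 for PRPS2, so the last pair hardly differed.

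The folate pairs and the reductase pair moved as well. SHMT2 over SHMT1 gave 2.63 in plus Dox and 2.18 in minus Dox, a shift toward the mitochondrial enzyme. MTHFD1L over MTHFD1 gave 0.220 in plus Dox and 0.408 in minus Dox, the widest difference of the 7 pairs (−0.89 on the log2 scale), toward the cytosolic enzyme. RRM2 over RRM2B gave 1.55 in plus Dox and 2.41 in minus Dox, a difference of −0.64 on the log2 scale. MTHFD2 over MTHFD2L gave 33.0 in plus Dox and 31.8 in minus Dox, with overlapping libraries. With the trend removed, RRM2 (0.37) and RRM2B (0.41) hardly differed in log2 fold change, while MTHFD2 (0.66) and MTHFD2L (0.071) did. SHMT2 (0.34) and SHMT1 (0.035) still differed, as did MTHFD1L (−1.24) and MTHFD1 (−0.15). Close relatives can lose reads to each other in counting.

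**Figure D3:**
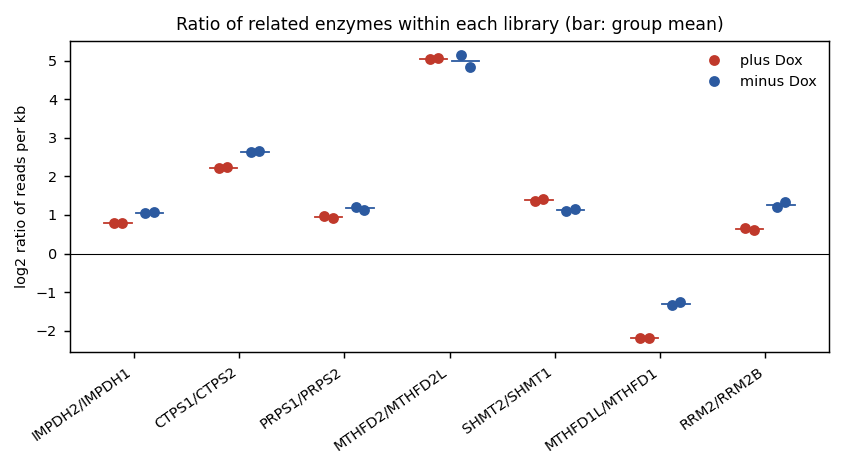
Log2 ratio of reads per kb between related enzymes (y axis) in each plus Dox (red, left) and minus Dox library (blue, right), with group means as bars. The groups overlap only for MTHFD2 over MTHFD2L, and the difference is widest for MTHFD1L over MTHFD1, at −0.89. No trend in GC content, length or abundance was taken out of the ratios.

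Levels per kb of merged exon (TMM-scaled RPKM) spanned from TK1, at 138 in plus Dox and 153 in minus Dox, to MTHFD2L, at 1.09 in plus Dox and 0.704 in minus Dox. PSAT1 came next to TK1 in both groups, with 73.8 RPKM in plus Dox and 82.1 RPKM in minus Dox. PHGDH, which feeds PSAT1, was far lower, with 6.81 RPKM in plus Dox and 6.98 RPKM in minus Dox, though merged exons include rare transcripts and lengthen some genes more than others. In rank among the 36, MTHFD2 stood 10 in plus Dox and 19 in minus Dox, and RRM2B 18 in plus Dox and 27 in minus Dox. CTPS1 stood 17 in plus Dox and 9 in minus Dox, and CAD 23 in plus Dox and 14 in minus Dox. The lowest places, DHODH, ALDH1L2 and MTHFD2L, were the same in both groups.

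With TMM, other pyrimidine genes were on balance lower, and other genes of these pathways were mixed. In the lists of other pyrimidine, purine, folate and serine genes 75.0% to 77.3% passed in either direction. Of all tested genes 56.9% did so, and of those with at least 8.80 CPM 72.8%. Of 22 tested pyrimidine genes outside the 36, 14 fell, 3 rose and 5 did not pass, with a median of −0.28 (−0.07 with library size only, where 8 fell and 6 rose). CDA, which deaminates cytidine, had 12.4 and 12.5 CPM in plus Dox and 43.1 and 46.1 CPM in minus Dox (log2 −1.84, edgeR adjusted p = 5.00e-21). DPYSL2, a relative of dihydropyrimidinase that acts on microtubules, fell by 0.96 and the nucleoside diphosphate kinase NME1 by 0.53. CMPK1, the kinase that phosphorylates UMP and CMP, rose to 159 and 156 CPM in plus Dox, against 91.0 and 78.1 CPM in minus Dox (0.90).

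Of 26 tested purine genes outside the 36, 11 rose, 9 fell and 6 did not pass, with a median of 0.00 (0.22 with library size only, where 15 rose and 5 fell). XDH, which oxidises hypoxanthine to uric acid, had 0.0852 and 0.239 CPM in plus Dox, from 3 and 8 reads, and 3.55 and 3.41 CPM in minus Dox (log2 −4.41, SE 0.37). GMPR, which turns GMP back to IMP, had 9.03 and 9.52 CPM in plus Dox and 2.63 and 2.64 CPM in minus Dox (1.81, edgeR adjusted p = 7.04e-13). The ectonucleotidase NT5E fell by 0.71, and the mitochondrial adenylate kinase AK3 rose by 0.57.

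Of 22 tested genes of folate and one-carbon metabolism outside the 36, 10 rose, 7 fell and 5 did not pass. GGH, the hydrolase that trims glutamates off folate, had 119 and 120 CPM in plus Dox and 76.5 and 73.5 CPM in minus Dox (0.67). FPGS, the synthetase that adds those glutamates, had 50.9 and 53.1 CPM in plus Dox and 79.2 and 78.3 CPM in minus Dox (−0.60). These opposing enzymes moved in opposite directions without overlap between groups. SLC25A32, the carrier that takes folate into mitochondria, rose by 0.63, although another gene on the same strand holds 69.7% of its exon bases, and the methionine adenosyltransferase MAT2A fell by 0.42.

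Of 24 genes that handle serine, glycine and asparagine, 11 fell, 7 rose and 6 did not pass, with a median of −0.06, while scaling by library size only gave 13 higher and 4 lower. The glycine transporter SLC6A9 fell to 12.0 and 11.1 CPM in plus Dox, against 34.0 and 37.1 CPM in minus Dox (log2 −1.62). PYCR1, an enzyme of proline synthesis that shares 14.1% of its exon bases with MYADML2 on the same strand, fell to 38.2 and 35.2 CPM in plus Dox, against 69.4 and 73.6 CPM in minus Dox (−0.96), and the mitochondrial carrier SFXN3 fell by 0.99. SERINC1, a membrane protein of the serine incorporator family, rose by 0.78.

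Among 10 tested regulators of these enzymes 4 fell, 4 rose and 2 did not pass. Thus 80.0% passed, against 56.9% of all tested genes and 72.8% of those with a mean of at least 8.80 CPM. With DESeq2 4 fell, 1 rose and 5 did not pass, and with library size only 3 fell and 5 rose. The values below are those of edgeR with TMM. MYC had 49.3 and 52.2 CPM in plus Dox and 146 and 153 CPM in minus Dox (log2 −1.56, edgeR adjusted p = 1.64e-24). ATF4 had 154 and 155 CPM in plus Dox and 226 and 243 CPM in minus Dox (−0.60). CEBPB and E2F2 also fell, by 0.41 and 0.33, while NFE2L2 (0.36), E2F3 (0.18), MAX (0.17) and E2F1 (0.13) rose. MTOR and DDIT3 did not pass, at −0.06 and −0.13, and 31.6% of the exon bases of DDIT3 lie opposite another gene. ATF4 mRNA was lower, while ASNS mRNA, with its uncertain count, was higher. The part of these regulators in the changes of the 36 genes was not tested.

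GC content went along with direction in this set. Of 13 members with a GC content under 45% in their longest transcript, 7 had a positive log2 fold change, and of the 23 others 3 did. Across the 36 genes Pearson's r between GC content and log2 fold change was −0.48, against −0.16 across 17974 tested genes with a value, where genes share libraries and are not independent. The part of GC content in these changes was not tested beyond the fit with the trend removed.

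**Figure D4:**
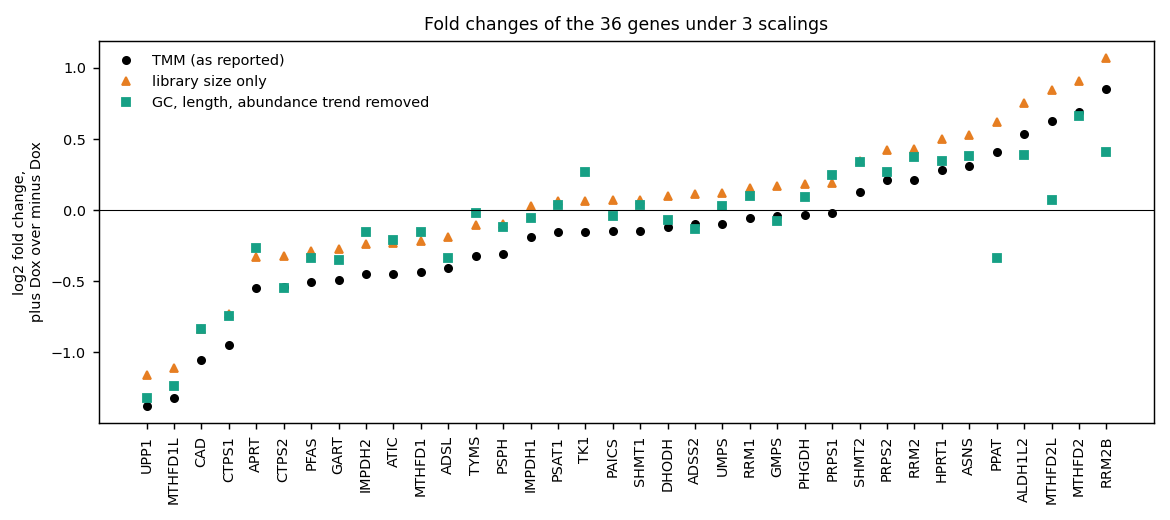
Log2 fold change (y axis, plus Dox over minus Dox) of the 36 genes, ordered from the lowest to the highest value with TMM (black circles), with library size only (orange triangles) and after removal of the trend in GC content, length and abundance (green squares). Members beyond −0.5 keep their sign in all 3 scalings, while with the trend removed PPAT lies at −0.34, against 0.41 with TMM, and TK1 at 0.27, against −0.15.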

How the data were processed

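PolyA RNA from 4 libraries was sequenced as paired 50-base reads from a stranded mRNA kit, per the labels' protocols. Each deposited file gives the raw, unnormalized counts of a single library over Ensembl genes. Per the submitters' processing notes, which give no roles, the tools were featureCounts 2.0.3, STAR 2.7.10b, cutadapt 4.0, DRAGEN and DESeq2 2.11.40.7, with build hg38. Not given in the sources used here were the annotation release and the strand setting, so reads of overlapping and antisense genes cannot be told apart.

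From the counts, genes were kept with filterByExpr and scaled by TMM, and group was tested with edgeR 4.0.16's quasi-likelihood test in R 4.3.3 with Benjamini-Hochberg adjustment over 18046 genes at 0.05. SE is the fold change over the root of the F statistic, and intervals are 2 SE each side. Alternatives were other scalings, no filter, DESeq2 1.42.0, a replicate block, each library left out, and a smooth trend of GC content, exon length and abundance per library (mgcv, 17974 of 18046 genes) used as an offset. Exon lengths, shared exon bases and coordinates are from GENCODE 29 (GRCh38), and symbols from a table of gene names. The pipeline was tested on simulated data. The 36 members, the gene lists and the motifs were chosen with earlier results of these data known. Besides the members, the text names up to 4 genes per list with the lowest adjusted p, every tested regulator, cell type markers, FOS and genes that share exons with a member. Some listed genes are not reported here. Counting error limits a count of 0 to 3 reads, 0.0740 to 0.0964 CPM before scaling.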

Additional observations from a re-analysis of the deposited data

How the results depend on the processing

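All 36 genes kept their call with RLE size factors, upper quartile scaling, no filter, DESeq2 and the replicate block, and without minus Dox replicate 1. The median of the 36 genes, −0.14 with TMM, was −0.15 with upper quartile scaling and DESeq2, −0.16 with no filter, −0.17 to −0.13 with 1 library left out, −0.045 after removal of the trend in GC content, length and abundance, and reversed to 0.072 with library size only. With library size only 7865 genes of all tested were higher and 2925 lower, against 5133 and 5132. Among genes that passed with TMM or with that scaling, it reversed PHGDH (0.18), PSAT1 (0.063), SHMT1 (0.073), PRPS1 (0.19), PAICS (0.070), IMPDH1 (0.030), GMPS (0.17), UMPS (0.12), TK1 (0.065) and RRM1 (0.16). It also reversed the medians of serine synthesis (0.063), the AMP and GMP branches (0.073) and purine salvage (0.084). ADSS2 (0.12) and DHODH (0.10) changed sign too but passed with neither scaling. By the same rule, removal of the trend reversed PSAT1 (0.036), SHMT1 (0.035), PRPS1 (0.25), PPAT (−0.34), TK1 (0.27) and RRM1 (0.10). The medians of serine synthesis (0.036) and purine salvage (0.041) were reversed as well. PHGDH (0.095) and UMPS (0.027) changed sign but passed in neither fit. The cause was not tested. Without plus Dox replicate 1, PSAT1 and SHMT1 did not pass, and without plus Dox replicate 2, SHMT1, SHMT2 and PAICS did not. Without minus Dox replicate 2, ADSS2, UMPS and RRM1 passed as lower. The labels do not state whether same-numbered libraries belong together. Deviations of same-numbered libraries correlated at 0.0023 across groups, which cannot settle this with 2 libraries per group. The replicate block gave 5219 higher and 5195 lower genes. Libraries of a group differed by more than sampling noise, with chi-square per degree of freedom of 2.25 in plus Dox and 4.13 in minus Dox. At 2 libraries per group and 31104964 to 40526912 counts, MTHFD2L, ALDH1L2 and DHODH had the widest standard errors of the 36 genes (0.12, 0.11 and 0.093).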
